A study of Mus musculus with 6 samples.

Results

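Activity-regulated early genes are the genes that neurons switch on soon after synaptic input, before the slower response genes follow. Here 40 such genes, chosen by symbol, were followed out of 19938 genes on arrays of dentate gyrus (DG) granule cells from control and Bcl11b/Ctip2 mutant mice. All 40 were on the array, each by 1 probe set (a group of probes that reads 1 gene), so no choice between probe sets was needed. Of these genes, 7 were lower in the mutants (Nptx2, Fosl2, Sgk1, Nr4a2, Dusp4, Plk2 and Atf3), 1 was higher (Errfi1) and 32 did not pass the test. The 10 best known earliest genes, Fos, Fosb, Junb, Egr1, Egr2, Egr3, Egr4, Arc, Npas4 and Nr4a1, were among the 32, and these varied strongly between arrays of the same group.

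RNA came from 3 control and 3 mutant samples, 1 Affymetrix whole-transcript array each. The mutant mice carried a floxed Bcl11b gene (Bcl11b flox/flox), tetO-Cre and CaMKIIα-tTA, a tet-off system in which doxycycline holds Cre off and the CaMKIIα promoter restricts it to forebrain neurons, granule cells among them. All mice, controls included, had doxycycline in the drinking water until 2 months of age and were killed 4 weeks after it was removed, and the DG granule cells were cut by laser capture from cryosections stained with cresyl violet. The genotype of the controls of this line, the sex of the mice and whether each array was 1 animal are not given in the labels or the methods, and the p-values therefore rest on a spread between arrays that may be technical.

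When a granule cell is excited, calcium entry and kinase cascades reach transcription factors that already sit on DNA, among them CREB, SRF with its Elk partners, and MEF2. These turn on a set of genes without any need for new protein. Part of the set encodes further transcription factors of the Fos, Egr, Nr4a, Npas4 and Klf families, and the rest encodes proteins that act at the synapse (Arc, Nptx2, Plk2) or that shut the kinase signal down again (the Dusp phosphatases, Errfi1). In the resting DG few granule cells fire at any time, and RNA of the earliest genes is short-lived.

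The targeted gene, Bcl11b, read 10.56, 10.40 and 10.30 on the log2 scale in the control arrays and 9.03, 8.68 and 8.82 in the mutant arrays, a change of -1.58 ± 0.099 (SE, adjusted p = 2.56e-05). Array medians lay between 6.29 and 6.36. All values below are log2 expression values, so a change of -1 is a level reduced to 1 part in 2 of the control. Over all genes, 5.93% were lower and 9.23% higher in the mutants by limma at an adjusted p of at most 0.05. Of the early genes, 17.5% were lower and 2.5% higher. Of these 40, 32 lay above the median level of all genes. In a fit of only the genes at or above that level, 10.9% were lower and 16.7% higher. The median change of the 40 genes was -0.12, against -0.0027 over all genes, with 27 changes below 0 and 13 above. With each array centred on its median, the early genes counted 8 lower and none higher, while the share of all changed genes that were higher went from 60.9% to 44.2%. That centring left 9.03% of all genes lower and 7.14% higher.

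**Figure D1:**
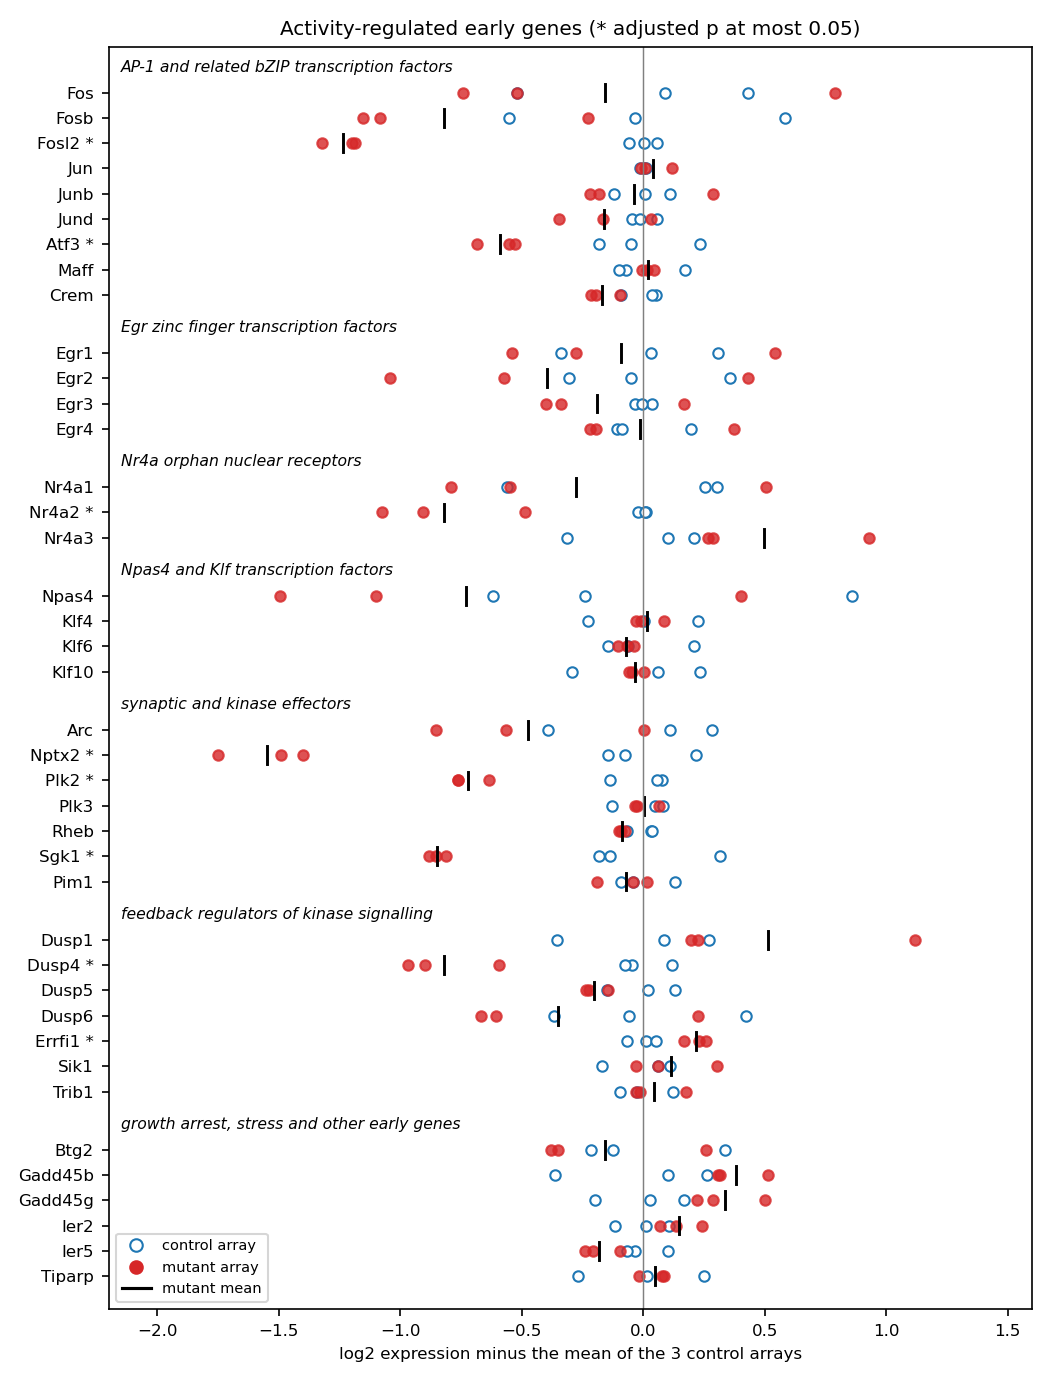
Log2 expression of the 40 early genes in each array, minus the mean of the 3 control arrays, ordered by role. Open blue circles are control arrays, filled red circles mutant arrays and black bars the mutant mean, and an asterisk marks the 8 genes with an adjusted p of at most 0.05. The 3 mutant arrays of Fosl2 and Nptx2 lie far to the left of all controls, whereas those of Fos and Egr2 spread to both sides of them and those of Npas4 overlap them.

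Promoter sequences were available for 30 of the 40 genes, in 43 windows of 250 bases before to 50 bases after an annotated start (RefSeq, GRCm38.p6). Egr1, Egr3, Arc, Nptx2, Dusp4, Ier2, Sik1, Klf10, Trib1 and Crem had none. The 5 windows below belong to genes that passed the test and held a motif of a factor of this pathway, and the last belongs to Egr2, one of the earliest genes, with the binding motif of SRF. All are written 5′ to 3′ in the direction of the gene, with the motif in capitals; base -1 is the last before the start.
Plk2: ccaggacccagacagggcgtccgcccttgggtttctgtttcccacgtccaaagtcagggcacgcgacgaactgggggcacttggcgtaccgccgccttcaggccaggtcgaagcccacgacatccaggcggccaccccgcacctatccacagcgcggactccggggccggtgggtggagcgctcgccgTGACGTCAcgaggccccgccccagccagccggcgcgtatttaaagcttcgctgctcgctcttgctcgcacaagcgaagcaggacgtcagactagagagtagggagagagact
Errfi1: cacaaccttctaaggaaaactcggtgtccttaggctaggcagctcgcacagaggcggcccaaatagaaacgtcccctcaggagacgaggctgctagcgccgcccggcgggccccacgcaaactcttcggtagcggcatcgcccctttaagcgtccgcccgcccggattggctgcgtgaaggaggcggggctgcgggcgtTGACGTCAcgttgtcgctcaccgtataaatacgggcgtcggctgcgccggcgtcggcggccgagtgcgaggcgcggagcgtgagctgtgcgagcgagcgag
Fosl2: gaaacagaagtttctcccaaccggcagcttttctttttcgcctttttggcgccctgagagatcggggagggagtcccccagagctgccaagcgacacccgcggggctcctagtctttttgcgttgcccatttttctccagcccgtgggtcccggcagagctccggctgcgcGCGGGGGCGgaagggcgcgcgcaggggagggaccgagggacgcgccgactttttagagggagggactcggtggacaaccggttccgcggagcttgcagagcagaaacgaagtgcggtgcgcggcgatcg
Nr4a2: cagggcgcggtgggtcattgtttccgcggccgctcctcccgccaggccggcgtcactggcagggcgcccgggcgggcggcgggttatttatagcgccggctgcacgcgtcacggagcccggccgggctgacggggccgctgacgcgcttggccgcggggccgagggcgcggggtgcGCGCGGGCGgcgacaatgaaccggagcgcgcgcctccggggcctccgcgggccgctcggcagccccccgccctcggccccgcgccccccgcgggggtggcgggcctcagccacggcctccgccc
Atf3: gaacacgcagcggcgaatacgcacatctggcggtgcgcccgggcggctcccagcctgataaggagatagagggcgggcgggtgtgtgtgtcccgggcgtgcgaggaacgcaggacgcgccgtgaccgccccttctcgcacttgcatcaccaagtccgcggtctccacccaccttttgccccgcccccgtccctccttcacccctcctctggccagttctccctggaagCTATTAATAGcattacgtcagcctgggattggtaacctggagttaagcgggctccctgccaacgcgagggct
Egr2: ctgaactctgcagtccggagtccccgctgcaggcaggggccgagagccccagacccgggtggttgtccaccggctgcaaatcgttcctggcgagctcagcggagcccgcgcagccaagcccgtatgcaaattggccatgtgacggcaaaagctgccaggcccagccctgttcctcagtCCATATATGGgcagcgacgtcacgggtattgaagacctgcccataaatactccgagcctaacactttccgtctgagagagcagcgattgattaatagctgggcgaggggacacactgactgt

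In Plk2 (chr13:110394794-110395093, plus strand) and Errfi1 (chr4:150854820-150855119, plus strand) the capitals mark the cAMP response element (CRE) TGACGTCA, bound by CREB and its relatives, which began at positions -62 and -51 from the start. The capitals of Fosl2 (chr5:32136222-32136521, plus strand) and Nr4a2 (chr2:57123954-57124253, minus strand) mark the motif of the Egr factors, GCGNGGGCG, which began at positions -79 and -74. In Atf3 (chr1:191183284-191183583, minus strand) they mark a MEF2 motif, and in Egr2 (chr10:67537619-67537918, plus strand) a CArG box. Errfi1 has a further window and Egr2 has several, in part overlapping, so windows are not independent.

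Each motif was searched on both strands and its share was set beside that of all 32851 mouse promoter windows. The full CRE stood in 5 of 43 early gene windows (11.6%), those of Btg2, Dusp1, Errfi1, Maff and Plk2, and in 1.79% of all windows. Its core, TGACG, which the full site contains, stood in 53.5% of early gene windows, from 20 genes, and in 20.8% of all. The Egr motif was in 18.6% against 5.55% (Btg2, Fosb, Fosl2, Gadd45b, Klf4, Maff, Nr4a1 and Nr4a2), and the CArG box in 11.6% against 1.63% (Dusp5 and Egr2). Overlapping Egr2 windows held the same CArG box, which was thus counted more than once, and the holders were 2 of 30 genes. The MEF2 motif was found in Atf3 and Jun, 4.65% of early gene windows against 0.557% of all. The AP-1 motif TGANTCA and the Nr4a motif AAAGGTCA were in none of the 43 windows (all windows: 7.81% and 1.51%). TGGGC, the short motif searched in the study as a putative Bcl11b/Ctip2 site, was in 58.1% of early gene windows and 56.9% of all; it can overlap the Egr motif. Genes that fell and genes that did not pass both appear among the holders of the CRE and of the Egr motif. These are matches of letters, with no measure of binding.

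Among the AP-1 and related bZIP transcription factors, 2 of 9 fell and none rose. Fosl2 encodes Fra-2, a partner of the Jun proteins in AP-1 that lacks the strong activation domain of Fos. It read 9.78, 9.84 and 9.72 in the controls and 8.46, 8.60 and 8.58 in the mutants. The groups were far apart with little spread in either, and the change of -1.24 ± 0.061 (SE, n = 3 per group) was a level 2.36-fold higher in controls (adjusted p = 7.6e-06).

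Atf3, a stress-induced bZIP factor of the CREB family, read 6.80, 7.09 and 6.67 in the controls and 6.30, 6.33 and 6.17 in the mutants. Every mutant array was below every control (-0.59 ± 0.10, adjusted p = 0.0052), with most of the spread among the controls. Crem, which also encodes the early repressor ICER, read 6.86, 6.84 and 6.72 in the controls and 6.71, 6.61 and 6.59 in the mutants. Its groups did not overlap, by a margin smaller than the spread within either, and the change of -0.17 did not pass (adjusted p = 0.117).

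Fos and Fosb, the factors most used to mark active neurons, did not separate the groups. Fos read 6.50, 7.11 and 7.45 in the controls and 6.28, 7.81 and 6.50 in the mutants, so the highest and the lowest array were both mutant. The change was -0.16 with a 95% interval of -1.02 to 0.70 (adjusted p = 0.85). Fosb read 7.998, 8.52 and 9.13 in the controls and 7.40, 8.32 and 7.46 in the mutants. Mutants 1 and 3 were below all controls and mutant 2 lay among them, which gave -0.82 with an interval of -1.51 to -0.13, and this missed the threshold after adjustment (adjusted p = 0.115). Without mutant 2 the change of Fosb was -1.12 (adjusted p = 0.047), and without control 1 it was -1.10 (adjusted p = 0.016). Over all omissions of 1 array it ran from -1.12 to -0.53, with adjusted p up to 0.329.

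Junb, an early Jun protein, read 8.05, 8.18 and 8.28 in the controls and 7.95, 8.46 and 7.99 in the mutants, with mutant 2 above and the others below all controls (change -0.04, 95% interval -0.33 to 0.26). Jun differed by 0.04, with an interval of -0.09 to 0.17. Jund, the least inducible of the Jun genes, differed by -0.16 (adjusted p = 0.309), and Maff, a small Maf protein, by 0.02 (adjusted p = 0.919).

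None of the 4 Egr genes passed. These zinc finger factors bind GC-rich DNA, and letter matches to the motif searched for them are shown above in Fosl2 and Nr4a2. Egr1, also known as Zif268 and required for lasting synaptic plasticity, read 8.34, 8.71 and 8.99 in the controls and 8.14, 9.22 and 8.40 in the mutants. Egr2 read 7.11, 7.37 and 7.77 in the controls and 6.38, 7.85 and 6.84 in the mutants. In both, mutant 2 was the highest and mutant 1 the lowest of all arrays.

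Egr3 read 9.91, 9.98 and 9.93 in the controls and 9.54, 10.11 and 9.60 in the mutants. Its controls differed by less than 0.1 while its mutants fell on both sides of them. Egr4 read 7.92, 7.94 and 8.22 in the controls and 7.81, 8.40 and 7.83 in the mutants, again with mutant 2 highest. The changes ran from -0.39 in Egr2 (95% interval -1.13 to 0.35) to -0.01 in Egr4 (-0.36 to 0.34), with adjusted p from 0.418 to 0.978. Without mutant 2, Egr2 (-0.81, adjusted p = 0.048) and Egr3 (-0.37, adjusted p = 0.011) passed. Mutant 2 was the highest mutant array in both, so its omission lowers the change. At the other end of the omissions of 1 array, the change was -0.07 in Egr2 and -0.09 in Egr3. The highest adjusted p were 0.938 and 0.801.

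The 3 Nr4a genes, orphan nuclear receptors that act without a known ligand, gave different results. Nr4a2 (Nurr1) fell, from 9.70, 9.73 and 9.72 in the controls to 8.64, 9.23 and 8.81 in the mutants. The controls were nearly identical and mutant 2 was nearest to them (-0.82 ± 0.13, adjusted p = 0.0030, a level 1.77-fold higher in controls). Nr4a1 (Nur77) read 8.25, 9.12 and 9.07 in the controls and 8.02, 9.32 and 8.26 in the mutants, with full overlap (-0.28, 95% interval -1.04 to 0.48). Nr4a3 (Nor1) lay the other way, at 8.31, 8.73 and 8.83 in the controls and 8.91, 9.55 and 8.89 in the mutants. All mutants were above all controls, but the difference of 0.50 did not pass (95% interval 0.07 to 0.93, adjusted p = 0.125). In all 3 genes mutant 2 was the highest mutant array and control 1 the lowest control.

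Neither Npas4 nor the 3 Klf genes passed. Npas4, a factor induced by calcium entry that controls inhibitory synapses, read 7.28, 7.66 and 8.76 in the controls and 6.40, 8.30 and 6.80 in the mutants. It had the widest spread of the early genes, covering 1.48 among controls and 1.90 among mutants, and its change of -0.73 had an interval of -1.86 to 0.40. The zinc finger factors Klf4, Klf6 and Klf10 differed by 0.02, -0.07 and -0.03, with adjusted p from 0.686 to 0.954. Together with the bZIP, Egr and Nr4a families, 3 of 20 transcription factors fell and none rose.

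Of the 7 synaptic and kinase effectors, 3 fell and none rose. Nptx2 (Narp), a secreted pentraxin that gathers AMPA receptors at excitatory synapses, had the lowest change of the 40 genes. It read 9.65, 9.36 and 9.29 in the controls and 7.95, 8.04 and 7.69 in the mutants, a gap much wider than the spread within groups. The change was -1.55 ± 0.11 (adjusted p = 5.8e-05), a level 2.92-fold higher in controls. Plk2, a polo-like kinase that weakens synapses during prolonged activity, read 10.88, 10.85 and 10.66 in the controls and 10.16, 10.04 and 10.03 in the mutants. The groups were again well apart, by -0.72 ± 0.073 (adjusted p = 3.0e-04).

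Sgk1, a serum- and glucocorticoid-regulated kinase, read 9.79, 9.33 and 9.29 in the controls and 8.66, 8.62 and 8.59 in the mutants. Control 1 stood above the other controls, the mutants were close together, and the change was -0.85 ± 0.12 (adjusted p = 0.0017). Rheb, a small GTPase that activates mTORC1, read 11.12, 11.22 and 11.22 in the controls and 11.09, 11.10 and 11.11 in the mutants. Its groups did not overlap, by a very small margin, and the change of -0.09 did not pass (adjusted p = 0.345).

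Arc, whose protein moves to dendrites and promotes removal of AMPA receptors, read 8.65, 9.15 and 9.33 in the controls and 8.19, 9.05 and 8.48 in the mutants. Mutants 1 and 3 were below all controls, mutant 2 among them, and the change of -0.47 had an interval of -0.98 to 0.04 (adjusted p = 0.219). Without control 1 it was -0.67 (adjusted p = 0.038). Over all omissions of 1 array it ran from -0.71 to -0.28, with adjusted p up to 0.546. The kinases Plk3 and Pim1 differed by 0.003 and -0.07 and did not pass.

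The 7 feedback regulators of kinase signaling held both directions. Dusp4, a nuclear phosphatase of MAP kinases, fell from 9.41, 9.25 and 9.22 in the controls to 8.33, 8.70 and 8.40 in the mutants (-0.82 ± 0.10, adjusted p = 8.5e-04). Errfi1 (Mig6), an inhibitor of the EGF receptor, rose from 10.78, 10.71 and 10.82 to 10.94, 11.002 and 11.03. The groups of both genes were apart, but the rise of Errfi1 was small, 0.22 ± 0.056 or 1.16-fold (adjusted p = 0.032). Without control 2, mutant 1, mutant 2 or mutant 3 it did not pass (0.19, 0.24, 0.21 and 0.20, adjusted p from 0.063 to 0.122).

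Dusp1, an early MAP kinase phosphatase, differed by 0.51 with overlapping groups (95% interval -0.04 to 1.07). Dusp6, which acts on ERK, had the opposite mean difference, -0.35 (95% interval -0.93 to 0.23). Dusp5, a nuclear ERK phosphatase, differed by -0.20 (adjusted p = 0.118) and passed without control 3 (-0.28, adjusted p = 0.027). Over all omissions of 1 array its change ran from -0.28 to -0.14, with adjusted p up to 0.346. Sik1, a kinase that restrains the CREB coactivators, and the pseudokinase Trib1 differed by 0.11 and 0.04 and did not pass.

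None of the 6 growth arrest, stress and other early genes passed, though 3 had groups that did not overlap. Gadd45b and Gadd45g, stress proteins that act on MAP kinase signaling, read higher in all mutants. Gadd45b was at 7.98, 8.44 and 8.60 in the controls and 8.66, 8.85 and 8.64 in the mutants (0.38, adjusted p = 0.12). Without control 3 the change was 0.51 (adjusted p = 0.039). Over all omissions of 1 array it ran from 0.20 to 0.51, with adjusted p up to 0.327. Gadd45g was at 7.98, 7.61 and 7.84 in the controls and 8.10, 8.03 and 8.31 in the mutants (0.34, adjusted p = 0.063). Without control 1 the change was 0.42 (adjusted p = 0.012). Over all omissions of 1 array it ran from 0.24 to 0.42, with adjusted p up to 0.21. Ier5 lay lower, at 9.03, 8.89 and 8.86 in the controls and 8.72, 8.83 and 8.69 in the mutants (-0.18, adjusted p = 0.113), with a narrow gap. The antiproliferative gene Btg2, Ier2 and Tiparp, a poly(ADP-ribose) polymerase family member, differed by -0.16, 0.15 and 0.05 with overlapping groups.

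Over the 40 genes, the groups did not overlap in 10 with lower mutants and in 4 with higher mutants. Over all genes these shares were 14.6% and 17%, so 10 of 40 lower genes was above and 4 of 40 higher genes below the background, as a description.

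Many of the early genes had a large spread within groups. In 25 of the 40 (62.5%) the within-group SD exceeded that of 90% of all genes measured, and the median SD was 0.176 against 0.0796 over all genes. For the 10 earliest genes it was 0.501, and each of them lay between percentiles 97.2 and 100 of all genes. Fosl2, by contrast, was at percentile 37.9 and Errfi1 at 22.4. Nr4a2, Sgk1, Nptx2, Atf3 and Dusp4 fell in spite of spreads at percentiles 97.1, 96, 95, 92 and 91.3. Thus 5 of the 8 genes that passed (62.5%) were above the 90th percentile. The share was the same, 20 of 32, among those that did not pass.

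**Figure D2:**
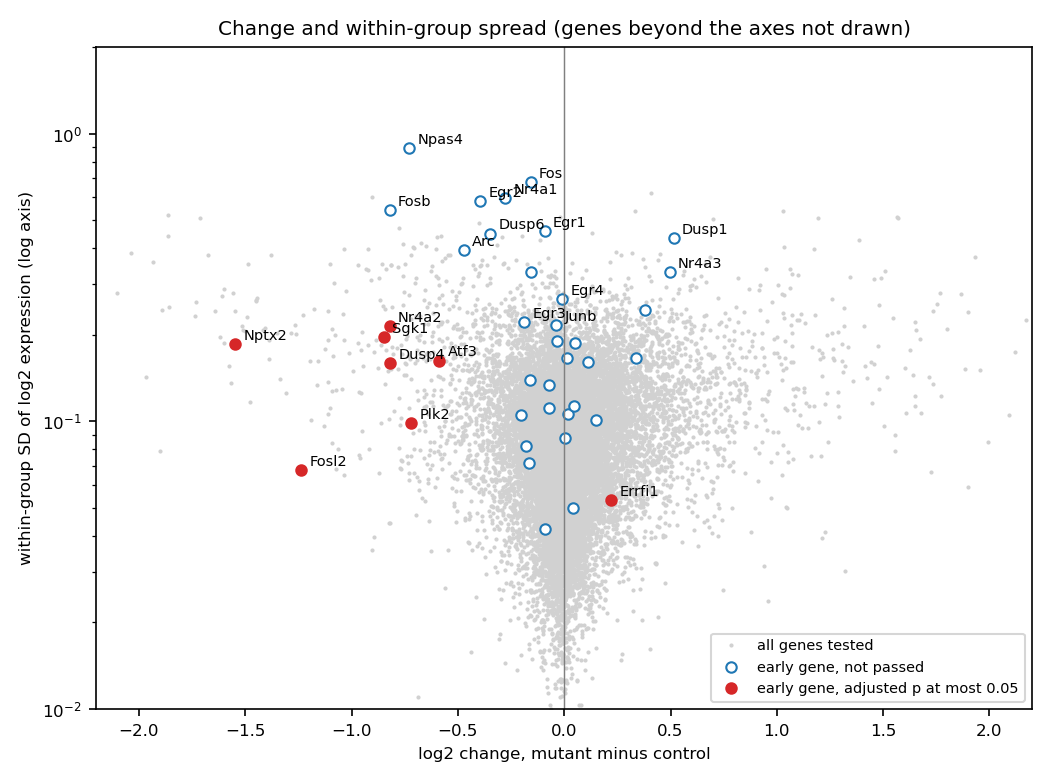
Change between groups (horizontal, log2 units) and pooled within-group SD (vertical, log axis) for all genes tested in grey and for the early genes, in red where the adjusted p was at most 0.05 and as open circles otherwise. Genes beyond the axes are not drawn. Npas4, Fos, Nr4a1 and Egr2 sit at the top with SDs from 0.582 to 0.892, and Fosl2 combines a change of -1.24 with an SD of 0.0677.

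In the earliest genes the spread followed the same arrays from gene to gene. This comparison of arrays was made after their values were seen, so the counts below are a description of selected genes and arrays. Mutant 2 was the highest mutant array in 10 of 10 (27.7% of all genes) and mutant 1 the lowest in 10 of 10 (33.1%). Control 1 was the lowest control in 10 of 10 (37.3%) and control 3 the highest in 8 of 10 (33.2%). Mutant 2 exceeded all controls in 7 of 10, and mutants 1 and 3 were both below all controls in 7 of 10, as in 27.4% and 17.9% of all genes. The replicate numbers carry no order, and these genes are not independent of each other.

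Centred on each gene's mean over the 6 arrays, the median of the 10 earliest genes was -0.15, 0.14 and 0.45 in controls 1 to 3 and -0.63, 0.48 and -0.35 in mutants 1 to 3. The median of mutant 2 was thus above that of every control, and the median of control 1 below those of the other controls. The 8 genes that passed read 0.48, 0.42 and 0.29 in the controls and -0.47, -0.32 and -0.47 in the mutants, where the separation follows from their choice. Over all 40 genes mutant 2 was the highest mutant in 31 (77.5%) and control 1 the lowest control in 24. Without mutant 2, 10 early genes were lower and none higher, beside 3.43% lower and 6.37% higher of all genes.

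**Figure D3:**
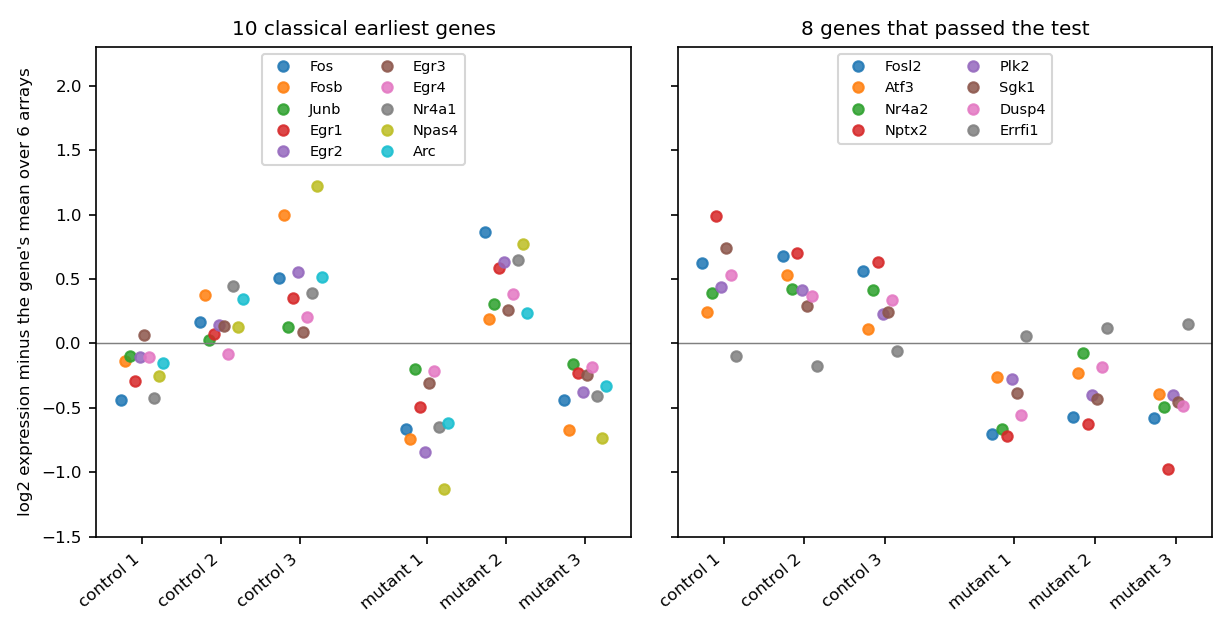
Log2 expression in each array, minus the gene's own mean over the 6 arrays, for the 10 earliest genes (left) and the 8 genes that passed the test (right), with 1 point per gene and array. On the left, mutant 2 sits above 0 in every gene and mutants 1 and 3 below 0. On the right the 7 lower genes are above 0 in all controls and below 0 in all mutants.

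Genes that carry the signal to the early genes were also examined, as a list of 45 kinases, phosphatases, transcription factors and cofactors of which 37 were measured. Of the 37, 14 were higher and 4 lower in the mutants (9.23% and 5.93% of all genes). All 37 lay above the median level of all genes. In a fit of only the genes at or above that level, 16.7% were higher and 10.9% lower. The kinase gene Rps6ka5 (MSK1), which phosphorylates CREB and histone H3, rose by 0.80 from a control mean of 8.47, and Camkk2 by 0.65 from 9.62. Camk4, the nuclear calcium/calmodulin kinase that phosphorylates CREB, rose by 1.03. Mapk7 (ERK5), the SRF partner Elk3 and Mef2c rose by 0.47, 0.49 and 0.46. The 4 lower genes, named after their values were seen, were Elk1, another SRF partner (-0.38), Mrtfb (-0.37), Ppp3r1 (-0.28) and Prkacb (-0.20). Creb1 itself differed by 0.04 (adjusted p = 0.708) and Srf by -0.22 (adjusted p = 0.216); both were named after their values were seen. With each array centred on its median, the list counted 10 higher and 6 lower (7.14% and 9.03% of all genes).

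A list of 40 other and delayed activity-regulated genes held 37 that were measured, 12 lower and 2 higher. These were 32.4% and 5.41%, against 5.93% lower and 9.23% higher over all genes. Penk, Ptgs2 and Pdyn, which encode opioid peptide precursors and the prostaglandin enzyme COX-2, changed by -4.40, -3.42 and -1.42. The study chose them on these samples, so their direction on these arrays is not independent evidence. Its quantitative RT-PCR also reported all of them lower. Without them 9 of 34 (26.5%) were lower and 2 (5.88%) higher. Sorcs3, a sorting receptor induced by activity, changed by -1.39, the granin Scg2 by -0.68 and Rgs2, a regulator of G protein signaling, by -0.73. Of genes often followed in the DG, Bdnf changed by -0.49 (adjusted p = 0.0069) and Homer1 by -0.11 (adjusted p = 0.625), named here after their values were seen.

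Of 57 measured close relatives of the early genes that are not early genes themselves, 4 were higher and 6 lower, shares of 7.02% and 10.5%. Jdp2, a repressor that binds AP-1 sites, rose by 1.22, and Dusp16, a phosphatase of JNK, by 0.90. Trib2 changed by -1.60, the antiproliferative gene Btg1 by -0.63, Klf16 by -0.52 and Atf6, a factor of the endoplasmic reticulum stress response, by -0.37.

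**Figure D4:**
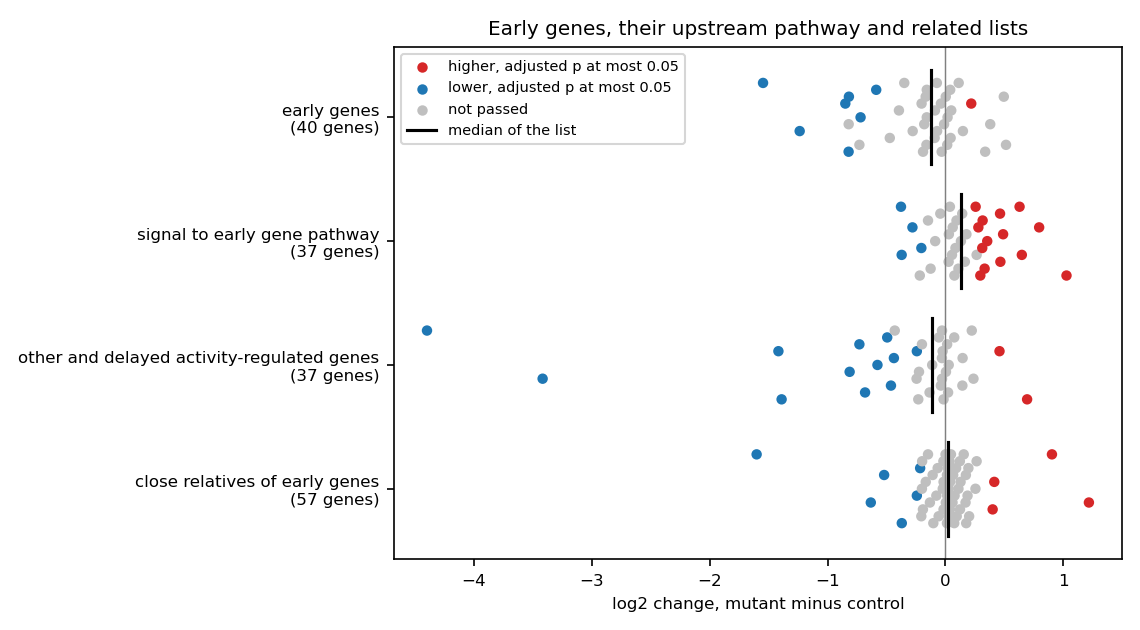
Log2 change between groups (mutant minus control) of each gene of the early gene list and of the 3 related lists, with the number of genes measured. Red and blue points are higher and lower at an adjusted p of at most 0.05, grey points did not pass, and the black bar is the median. The upstream pathway has most of its called genes above 0 (14 against 4) and the delayed genes below 0 (12 against 2).

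Other cell markers moved in the same arrays, and fewer cells of a type and less RNA per cell cannot be told apart in such samples. The granule cell marker Prox1 differed by -0.05 between groups (adjusted p = 0.788), while 6 of 8 granule cell markers, Calb1 and Dsp among them, were lower and Tdo2 was higher. Dsp encodes desmoplakin, which the paper names as a direct target of Bcl11b/Ctip2. C1ql2, the marker that changed most, was picked in the study from these same arrays. The study also reported it lower by quantitative RT-PCR, and its promoter region enriched in chromatin immunoprecipitation with a Bcl11b/Ctip2 antibody. The summed level of the 8 markers, as log2, was 14.37 to 14.42 in the controls and 13.55 to 13.68 in the mutants. Of 8 markers of immature neurons, Dcx (1.07), Sox11 (0.46) and Neurod1 (0.34) were higher. The other 5 did not pass, and 3 of them had changes below 0 (Calb2 -0.33, Sox4 -0.11 and Eomes -0.05). The median change of the 8 was 0.049. Their summed level was 11.27 to 11.49 in controls and 11.66 to 11.79 in mutants. Of 9 astrocyte markers, Gfap (0.54) and Slc1a2 (0.32) were higher. The part of these shifts in the changes of the early genes was not tested.

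Beside the array pattern of the earliest genes stand other array differences. Of 9 microglia markers all had changes below 0 and 1, Tmem119, passed. Their summed level was lowest in control 1 and highest in control 3 among the controls (10.23, 10.47 and 10.73), the same order as the medians of the earliest genes, and 10.19, 10.35 and 10.16 in the mutants, highest in mutant 2 but lowest in mutant 3. The astrocyte markers summed to 12.69, 12.85 and 12.89 in the controls and 13.02, 13.17 and 13.02 in the mutants, with the same control order and mutant 2 highest. The 10 endothelial and mural markers summed to 9.90, 10.04 and 10.03 in the controls and 10.03, 10.30 and 10.17 in the mutants, also highest in mutant 2, with Pdgfrb and Flt1 higher in the mutants. None of the 8 oligodendrocyte markers passed, and their sums were 11.39, 11.51 and 11.50 in the controls and 11.26, 11.47 and 11.39 in the mutants, with the order of the mutants as in the earliest genes. Interneuron markers (Cck higher, Gad1 lower, of 9) summed to 12.28, 12.41 and 12.73 in the controls and 12.97, 13.14 and 13.03 in the mutants, in the order of the earliest genes in both groups. Cck alone carried the rise of this sum: the other 8 interneuron markers, summed without Cck after the values were seen, read 11.97, 11.79 and 12.04 in the controls and 11.76, 11.81 and 11.72 in the mutants. Pyramidal and mossy cell markers (2 higher, 1 lower, of 9) summed to 10.70, 10.61 and 10.66 in the controls and 10.78, 10.83 and 10.86 in the mutants. Here control 1 was the highest control and mutant 3 the highest mutant, unlike the earliest genes. Immature neuron sums were also highest in control 1 among controls (11.49, 11.27 and 11.31) and lowest in mutant 3 among mutants (11.79, 11.78 and 11.66). Granule cell sums were lowest in mutant 2 (13.68, 13.55 and 13.61 in the mutants). The part of these marker differences in the pattern of the earliest genes was not tested.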

How the data were processed

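The table deposited by the authors holds log2 expression values for 6 arrays, computed with the RMA method of Affymetrix Expression Console (background correction, quantile normalization, 1 value per probe set). Tool versions and the genome build of the probes: not given in the sources used here. Quantile normalization, done before the summary per probe set, gives arrays nearly the same distribution, so a shift of all genes together cannot be seen. Small offsets remained, with array medians between 6.29 and 6.36. Over all genes, 1840 were called higher and 1183 lower. Renewed quantile normalization gave 1628 and 1545, and arrays centred on their median 1423 and 1800. Of 35556 probe sets, 21789 have 1 gene in the platform annotation, 1621 several, and 12146 are not listed there. Each of 19938 genes was represented by its probe set of highest mean, and no filter on level was used.

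Mutant minus control was fitted per gene by limma (version 3.58.1, R 4.3.3) through lmFit and eBayes without covariates. P-values were adjusted by Benjamini-Hochberg across the 19938 genes, with 0.05 as the threshold, and the fit was tested on simulated data. An exact permutation test of 3 against 3 arrays cannot go below 0.1. The number of arrays limits the precision, and detection calls were not used here. Members, gene lists and motifs were chosen with earlier results of these data known; the motif TGACG was added after the promoters were seen. Values by array are given for genes that passed, whose groups did not overlap, or that belong to the 10 earliest genes. Up to 6 genes with the smallest p are named per pathway list. The lower signal genes and others stated as such were named after their values were seen. Alternatives were the Student t-test of the methods, array weights, other scalings, a filter, other thresholds, a block by replicate number and the omission of each array.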

Additional observations from a re-analysis of the deposited data

How the results depend on the processing

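The counts of early genes were recomputed under 18 alternatives. Fosl2, Nptx2 and Plk2 passed under every alternative run, and Sgk1, Nr4a2, Dusp4 and Atf3 under all that were run except the methods' t-test with Benjamini-Hochberg adjustment (adjusted p from 0.053 to 0.10). That test gave 3 lower and 0 higher early genes, beside 2.24% lower and 3.48% higher of all genes. At its unadjusted threshold it gave 8 lower and 1 higher, beside 10% and 12.8%. By the adjusted test the signal pathway counted 4 higher, the delayed genes 7 lower and 0 higher, and the close relatives 3 lower and 2 higher. Array weights gave 12 lower and 4 higher early genes, beside 11.9% lower and 15.8% higher of all genes. Higher early genes numbered 2 with the filter on dim genes and at an adjusted p of 0.1 (16.7% and 12.2% of the genes tested). They numbered 0 at 0.01, after renewed quantile normalization and with arrays centred on their median (5.11%, 8.17% and 7.14%). Delayed genes higher numbered 1 after renewed quantile normalization. The scalings of the related lists were tried after the data were seen. Omission of 1 array gave 7 to 10 lower and 0 to 2 higher early genes, with a median change from -0.21 to -0.04. Of all genes it left 3.4% to 8.68% lower and 6.05% to 13.8% higher. It also gave 1 to 3 delayed genes higher and 2 to 7 close relatives higher. Delayed genes lower ran from 9 to 17 and signal genes higher from 10 to 16.

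The deviations of same-numbered arrays correlated at 0.164, -0.0328 and 0.118, and for 4 of 6 arrays the best partner had the same number. Arrays of unlike number correlated from -0.168 to 0.0644. These weak correlations do not decide whether the numbers mark pairs, and the main fit did not treat them as pairs. With the replicate number as a block, 9 early genes were lower and 3 higher, beside 6.27% lower and 9.65% higher of all genes.

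Of the 32 early genes that did not pass, 13 changed sign under at least 1 alternative and 19 kept their sign under all that were run. With 1 array omitted, the change ran from -0.631 to 0.134 in Fos, from -0.202 to 0.053 in Junb, from -0.0307 to 0.103 in Maff, from -0.407 to 0.132 in Egr1, from -0.205 to 0.0914 in Egr4, from -0.0985 to 0.128 in Klf4, from -0.143 to 0.0343 in Klf6, from -0.178 to 0.0841 in Klf10, from -0.0602 to 0.0428 in Plk3, from -0.0222 to 0.105 in Trib1, from -0.366 to 0.011 in Btg2 and from -0.0841 to 0.175 in Tiparp. Array weights turned Egr4 to 0.01, Klf4 to -0.14 and Plk3 to -0.037. Centring each array on its median turned Jun to -0.0079, Maff to -0.0303, Klf4 to -0.0332, Plk3 to -0.0455 and Trib1 to -0.0043.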
